A study of Mus musculus with 4 samples.

Results

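Zinc transporters and metallothioneins were examined in the ventricles of male 129SV mice, with or without the calcium-permeable cation channel TRPC6. The genes were chosen by their symbol on the array: Slc39a or Slc30a followed by a number, Mt1 to Mt4, Mtf1 and Mtf2. This gave 30 genes read by 34 probes, of 19321 genes with a symbol and 23473 gene probes in all. There were 2 wild-type samples and 2 samples with genotype Trpc6-/-, each read on 1 array in 1 colour. The labels give neither the age of the mice nor the construction of the deleted allele. They also do not say whether the 2 samples of a group came from separate animals, so the spread behind the p-values may be technical.

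Cells keep free zinc very low. The Slc39a (ZIP) family moves zinc into the cytosol from outside or from organelles, and the Slc30a (ZnT) family moves it out of the cytosol. Metallothioneins are small cysteine-rich proteins that bind and buffer zinc and copper, and their genes are switched on by metals, glucocorticoids and stress. MTF1 senses zinc and activates metallothionein genes and Slc30a1 through metal response elements. TRPC6 itself has been reported to pass zinc as well as calcium into cardiac cells.

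Of the 30 genes, 24 were above background and could be compared between the genotypes. A probe was kept if its spot median passed a threshold on at least 2 arrays, namely the 95th percentile of the blank spots and negative controls there. Kept were 12 of 14 importers, 7 of 10 exporters, 3 of 4 metallothioneins, Mtf1 and Mtf2. The median gene probe read 95.5 to 106 units, against thresholds of 80.8 to 91.5 units, and 76.3% to 83.2% of gene probes were above background. All 8 ventricular cardiomyocyte markers were kept, with a summed normalized intensity of 206654 to 215951. Quantile normalization gives the brightest probes of every array the same set of values. Actc1, Myl2 and Tnnt2 only exchanged log2 values of 15.51, 15.37 and 15.25 between arrays. The sum, which such bright genes dominate, therefore cannot compare cardiomyocyte content. Of the 3 atrial markers kept, 1 had a log2 fold change above 0 (Nppa, 0.64), Myl4 was at -0.45 and Myl7 at 0.00. Of the 6 fibroblast markers, 3 lay above and 3 below 0 with a median of 0.003, and the brightest, Dcn, was at -0.47 while Col3a1 was at 0.49. Of the 6 endothelial markers, 1 lay above and 5 below 0, with a median of -0.071. Their part in the results was not tested. The single Trpc6 probe was above background on 0 arrays and could not check the labels. In bulk tissue, fewer cells of a type and less RNA per cell cannot be told apart.

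Among these genes the metallothioneins Mt1 and Mt2 differed most between arrays, and the transporters differed little. Mt1 and Mt2 averaged 1.70-fold higher in the knockout, but for both the second wild-type array lay close to the first knockout array. Slc30a9, an exporter of mitochondria, averaged 0.817 of its wild-type level. With Benjamini-Hochberg adjustment over the 15955 genes tested, limma called 0 of the 24 genes. It also called 0 genes of the whole array (0%), where the smallest adjusted p was 0.369. At an unadjusted limma p under 0.05 there were 1076 genes, 6.74% of all tested (3.67% higher and 3.08% lower in the knockout), and 0 of the 24. That 0 does not hold under every setting. Mt1 and Mt2 had unadjusted p-values of 0.0235 and 0.0405 with an intensity trend in the variance, and of 0.0259 and 0.0389 in the deposited processed table. Neither had an adjusted p under 0.05 there.

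**Figure D1:**
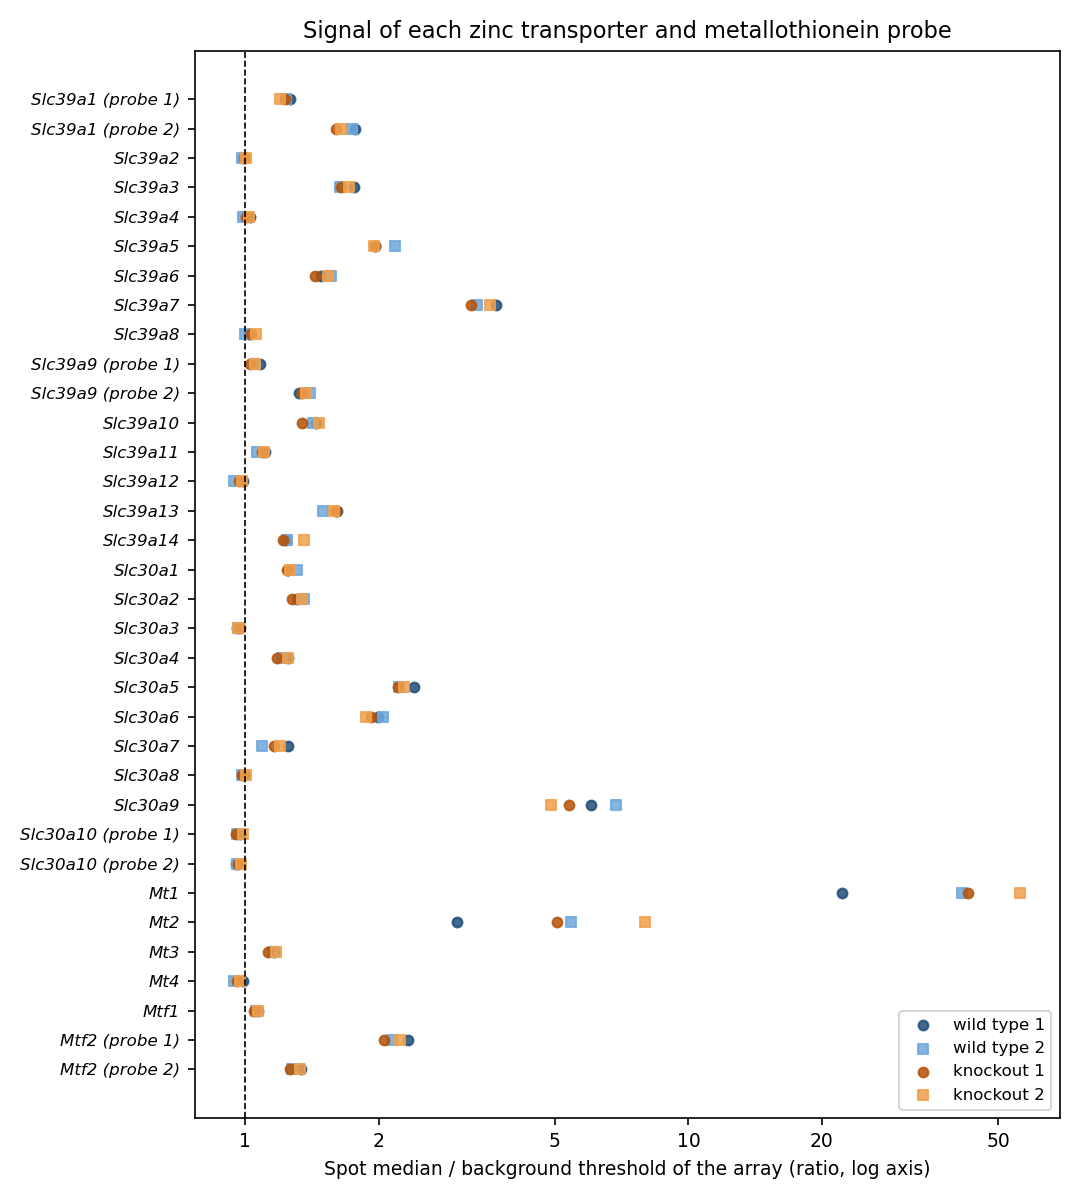
Each row is 1 of the 34 probes and each point 1 array; the x axis is the spot median divided by the background threshold of that array, as a ratio on a log axis. Slc39a12, Slc30a3, both Slc30a10 probes and Mt4 lie left of the dashed line at 1 on all 4 arrays, and Mt1 and Mt2 show the widest spread between arrays.

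Windows around the annotated start sites of 4 genes are printed. They were chosen because Mt1 and Mt2 varied together between arrays, while their neighbour Mt3 and the exporter Slc30a1, a known MTF1 target, did not. Mt3 and Slc30a1 were dim, and the offset of 50 units added in processing shrinks differences of dim probes. In the deposited processed table, which has no offset, Mt3 read 13 to 16.7 units and Slc30a1 22.2 to 25.8 units. In the mouse the metallothionein genes lie in a row on chromosome 8, and the annotated start sites of Mt2 and Mt1 are 6471 bases apart. Each window is RefSeq sequence of build GRCm38.p6, plus strand, from 250 bases before to 50 bases after the annotated start site. Whether transcription starts there was not tested, and elements outside a window are not counted. Capitals mark matches to the core of the metal response element, searched as TGCACNC and TGCGCNC on both strands. No match overlaps another in these windows. The windows are chr8:94178839-94179138 for Mt1, chr8:94172368-94172667 for Mt2, chr8:94152357-94152656 for Mt3 and chr1:191906531-191906830 for Slc30a1.
Mt1: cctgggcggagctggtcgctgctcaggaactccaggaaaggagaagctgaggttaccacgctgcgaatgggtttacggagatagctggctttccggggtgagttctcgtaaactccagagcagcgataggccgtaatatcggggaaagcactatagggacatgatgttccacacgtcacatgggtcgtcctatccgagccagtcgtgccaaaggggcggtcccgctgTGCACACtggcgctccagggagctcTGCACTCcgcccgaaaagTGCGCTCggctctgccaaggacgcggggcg
Mt2: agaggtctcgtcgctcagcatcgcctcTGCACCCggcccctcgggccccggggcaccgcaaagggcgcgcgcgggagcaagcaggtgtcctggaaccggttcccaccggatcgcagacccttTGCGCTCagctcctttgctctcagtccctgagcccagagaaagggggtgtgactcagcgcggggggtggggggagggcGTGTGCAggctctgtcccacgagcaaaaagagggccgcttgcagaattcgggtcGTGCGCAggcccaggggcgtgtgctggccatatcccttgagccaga
Mt3: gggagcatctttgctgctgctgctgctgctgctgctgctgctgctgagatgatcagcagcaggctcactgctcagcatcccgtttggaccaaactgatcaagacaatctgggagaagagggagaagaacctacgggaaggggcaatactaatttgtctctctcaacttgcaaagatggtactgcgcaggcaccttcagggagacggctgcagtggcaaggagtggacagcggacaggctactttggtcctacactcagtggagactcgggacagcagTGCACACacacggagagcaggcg
Slc30a1: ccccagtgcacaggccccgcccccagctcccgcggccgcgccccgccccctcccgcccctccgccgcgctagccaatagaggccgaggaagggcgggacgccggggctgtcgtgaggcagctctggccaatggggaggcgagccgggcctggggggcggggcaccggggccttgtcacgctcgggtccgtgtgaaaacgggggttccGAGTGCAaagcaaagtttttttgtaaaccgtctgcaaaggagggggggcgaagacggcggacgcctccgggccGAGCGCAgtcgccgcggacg

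Mt1 held 3 matches, all on the printed strand, and Mt2 held 4, of which 2 were on the opposite strand. Mt3 held 1, and Slc30a1 held 2 on the opposite strand. Of all 32851 windows of this length, 25.7% held at least 1 match, 7.11% at least 2, 1.97% at least 3 and 0.517% at least 4. A window was present for 26 of the 30 genes, and 16 of these had a match in at least 1 window. By family these were 5 of 11 importers, 6 of 9 exporters, 4 of 4 metallothioneins and 1 of the 2 regulators. At least 3 matches were found for Mt1, Mt2, Slc30a4 and Slc30a10, where 2 of the Slc30a10 matches overlap on opposite strands. Slc30a4, a dim probe, had a log2 fold change of 0.00. Its arrays differed by -0.01 (log2) in wild type and 0.06 in the knockout. A match describes these letters and does not show that MTF1 binds there. Whether the number of matches goes with the array values was not tested.

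Mt1 encodes a major metallothionein of most tissues. Its probe read 1793 and 3781 units in wild type against 3648 and 4674 units in the knockout. After normexp correction and quantile normalization the log2 values were 10.80 and 11.75 in wild type against 11.82 and 12.26 in the knockout. The groups did not overlap, but the second wild-type array lay only 0.07 below the first knockout array. Knockout minus wild type, the log2 fold change was 0.76 ± 0.35 (standard error), with a 95% interval of -0.17 to 1.70. The limma p was 0.0888, and adjusted over all genes it was 0.770.

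Mt2, the partner gene of Mt1, read 243 and 498 units in wild type against 431 and 666 units in the knockout. Its log2 values were 7.77 and 8.77 in wild type against 8.69 and 9.37 in the knockout, so that the groups overlapped. The log2 fold change was 0.76 ± 0.41, with a 95% interval of -0.32 to 1.84 and a limma adjusted p of 0.780. The first wild-type array was the lowest and the second knockout array the highest for both genes. Relative to the first wild-type array, Mt1 was higher by 0.95, 1.02 and 1.46 on the other arrays, and Mt2 by 1.0, 0.93 and 1.60, both on the log2 scale.

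These differences within a genotype were among the largest on the array. The 2 wild-type arrays differed 1.94-fold in Mt1 and 2.00-fold in Mt2, which ranked 19 and 14 of 15955 genes by absolute difference. The 2 knockout arrays differed 1.35-fold and 1.60-fold, at ranks 90 and 21. The absolute fold changes between genotypes ranked 12 for Mt1 and 11 for Mt2. At least 1.5-fold between group means was reached by 23 genes, 0.144% of all tested, and Mt1 and Mt2 were 2 of these. Without the first wild-type array the log2 fold changes of Mt1 and Mt2 fell to 0.29 and 0.26. Without the second knockout array they were 0.54 and 0.42, without the first knockout array 0.98 and 1.1. They were 1.24 and 1.26 if the second wild-type array was left out. These 4 fits leave 1 array in a group and are given for their values alone. Probe sequences were not analysed here, so cross-hybridisation between the closely related Mt1 and Mt2 was not tested.

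Mt3, best known from the brain, was close above background. Its probe read 93.8 and 106 units in wild type against 96.5 and 97.6 units in the knockout, all above the threshold of the array. The log2 fold change was 0.01 ± 0.04, with a 95% interval of -0.10 to 0.12. Mt4, a metallothionein of squamous epithelia, read 79.9 and 86.4 units in wild type against 81.8 and 81.3 units in the knockout, and was not above background on any array.

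**Figure D2:**
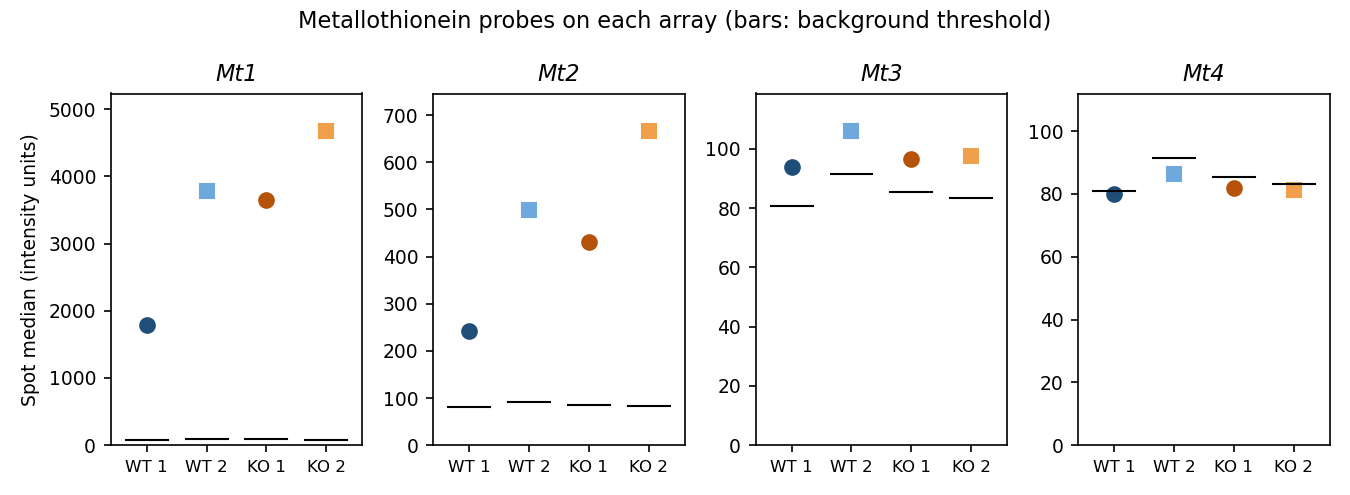
Spot medians in intensity units (linear axis from 0, with a different scale in each panel) of the 4 metallothionein probes on the wild-type (WT) and knockout (KO) arrays; the short bars are the background threshold of each array. Mt1 and Mt2 are lowest on the first wild-type array and highest on the second knockout array, Mt3 lies just above the thresholds, and Mt4 lies below them.

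The importers lay close together between genotypes. Of the 12 kept, 10 had a log2 fold change above 0 and 2 below, and all lay between -0.09 and 0.10. Among all genes tested, 8151 of 15955 lay above 0. The sign of 7 of the 12 turned under at least 1 other way of processing or with an array left out. Their median was 0.021, beside 0.002 over all genes tested. Slc39a1, a plasma membrane zinc importer, had the smallest p of the family. It was at 6.87 and 6.89 in wild type against 6.81 and 6.78 in the knockout, below wild type on both arrays. The log2 fold change was -0.09 ± 0.04, with a limma p of 0.0783 and an adjusted p of 0.760. A dimmer probe of Slc39a1 gave -0.02, with values of 6.25 and 6.25 in wild type against 6.28 and 6.19 in the knockout, where the groups overlapped.

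Slc39a8, which carries zinc and manganese, was at 5.84 and 5.83 in wild type against 5.89 and 5.92 in the knockout, higher on both knockout arrays. This dim probe passed the threshold on 1 of the wild-type arrays and on both knockout arrays. Its log2 fold change was 0.07 ± 0.04, with an adjusted p of 0.780. The offset of 50 units in the normexp step shrinks fold changes of dim probes. In the deposited table of processed intensities Slc39a8 averaged 3.45 units in wild type and 6.05 in the knockout, a ratio of 1.75 between values close to background. On that scale, with a floor of 2.3 units, its log2 fold change was 0.81, with a limma adjusted p of 1.

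Slc39a13, a zinc transporter of the secretory pathway that is mutated in a connective tissue disorder, was at 6.70 and 6.62 in wild type against 6.81 and 6.71 in the knockout. The knockout arrays were higher by a narrow margin, and the log2 fold change was 0.10 ± 0.06 with an adjusted p of 0.795. Its sign turned to -0.08 when the local background was subtracted. Slc39a14, which takes up zinc, iron and manganese, was at 6.21 and 6.28 in wild type against 6.26 and 6.42 in the knockout, with overlap.

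Slc39a7, which releases zinc from the endoplasmic reticulum, was at 8.09 and 7.99 in wild type against 8.0 and 8.10 in the knockout. The difference of 0.01 (log2) had a 95% interval of -0.16 to 0.18. Slc39a6 and Slc39a10, plasma membrane importers that act together, had log2 fold changes of 0.01 and 0.00, with intervals of -0.17 to 0.18 and -0.13 to 0.13. Slc39a3 and Slc39a5 had log2 fold changes of 0.04 and -0.04, and the Golgi transporter Slc39a9 and Slc39a11 had 0.03 and 0.04. A dimmer probe of Slc39a9 gave -0.05. Slc39a4, the importer of dietary zinc in the gut, passed the threshold on 1 of the wild-type arrays and had a log2 fold change of 0.00.

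Slc39a2 and Slc39a12 were not kept. Slc39a2 read 80.0 and 90.0 units in wild type against 85.4 and 83.7 units in the knockout, and passed the threshold on 1 array. It missed it on the first knockout array, where the threshold was 85.5 units. Just inside the rule, Slc39a4 read 86.0 and 84.9 units on the knockout arrays. Slc39a12, a brain transporter, was not above background on any array.

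Among the exporters, 3 of 7 had a log2 fold change above 0 and 4 below, with a median of -0.004, and the sign of all 7 turned under at least 1 alternative. Slc30a9 stood apart from the other exporters in size. Its probe read 488 and 628 units in wild type against 459 and 407 units in the knockout. The log2 values were 8.85 and 9.12 in wild type against 8.79 and 8.60 in the knockout, so both knockout arrays lay below both wild-type arrays. The log2 fold change was -0.29 ± 0.11, with a 95% interval of -0.59 to 0.01, a limma p of 0.0556 and an adjusted p of 0.751. Without the second wild-type array it was -0.16, and without the first wild-type array -0.42. It was 0.03 when the local background was subtracted, so the direction depends on that step. In the deposited processed table the ratio of knockout to wild type was 0.824.

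Slc30a1 exports zinc across the plasma membrane. It was at 6.24 and 6.37 in wild type against 6.30 and 6.27 in the knockout. The log2 fold change of -0.02 had a 95% interval of -0.17 to 0.14. It too was lowest on the first wild-type array, but the second wild-type array was highest, so the wild-type values enclosed those of the knockout. Slc30a5 and Slc30a6, which form a complex in the early secretory pathway, had log2 fold changes of 0.00 and -0.05. For Slc30a6 the values were 7.07 and 7.17 in wild type against 7.13 and 7.02 in the knockout, with a limma p of 0.490. Slc30a7, also of the early secretory pathway, was at 6.23 and 6.0 in wild type against 6.16 and 6.18 in the knockout, with a p of 0.564. Slc30a2 and Slc30a4, known from zinc secretion into milk, both had a log2 fold change of 0.00.

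Slc30a3 of synaptic vesicles and the manganese exporter Slc30a10, by both of its probes, were not above background on any array. Slc30a8 of insulin granules read 80.2 and 90.0 units in wild type against 84.1 and 83.5 units in the knockout, and passed only on the second knockout array.

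The metal sensor Mtf1 was dim but above background on all 4 arrays, at 5.92 and 5.94 in wild type against 5.93 and 5.93 in the knockout. This difference of 0.00 had a 95% interval of -0.10 to 0.10. Mtf2, named for the metal response element and known as a Polycomb-associated protein, was at 7.34 and 7.26 in wild type against 7.26 and 7.33 in the knockout. On the log2 scale the difference was -0.01 by the brighter probe and 0.02 by the other.

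**Figure D3:**
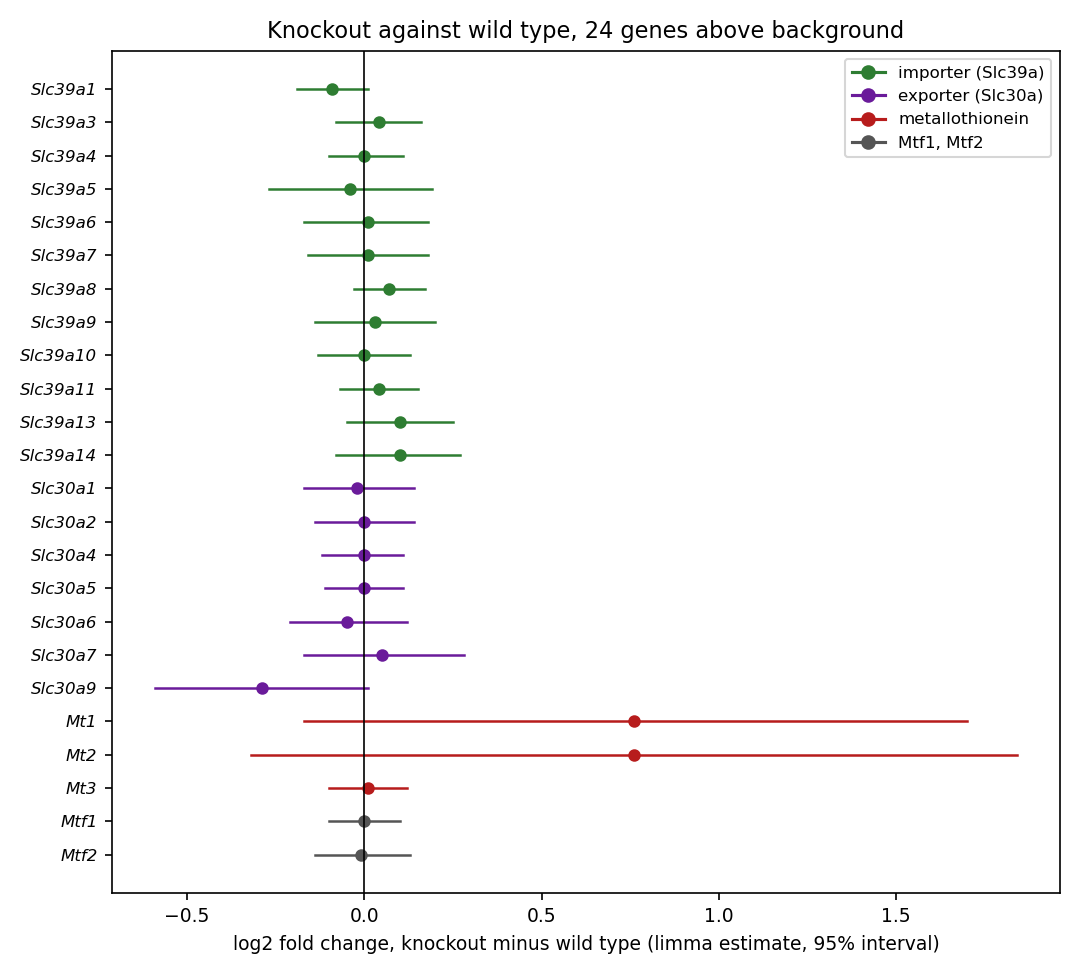
log2 fold change, knockout minus wild type, of the 24 genes above background (points) with the 95% interval of the limma fit (lines), coloured by family; the vertical line marks no difference. Every interval includes 0, and those of Mt1 (-0.17 to 1.70) and Mt2 (-0.32 to 1.84) are the widest.

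In these families, as over the whole array, the spread within a genotype exceeded the difference between genotypes for most genes. In 20 of the 24 genes the difference between group means was smaller than the gap between the 2 arrays of 1 group, and this held for 76.1% of all genes tested. The groups did not overlap in 6 of the 24, against 36.8% of all genes tested. Slc39a1 and Slc30a9 lay below wild type, where 17.4% of all genes did. Slc39a8, Slc39a11, Slc39a13 and Mt1 lay above it, where 19.4% did. For 18 of the 19 kept transporters both bounds of the 95% interval lay within 1.3-fold, on the scale that includes the offset, and Slc30a9 was the exception. In the deposited processed table, which has no offset, 18 transporters had a ratio of knockout to wild type. It lay between 0.824 and 1.24 for all but Slc39a8, whose probe was near background, so that no exact fold is read from it. The importer median was 0.021 and the exporter median -0.004 on the log2 scale, and the metallothionein median was 0.762. The metallothionein value rests on Mt1 and Mt2, since Mt3 was at 0.01.

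Mt1 and Mt2 shared their low value on the first wild-type array with genes outside the family. Of 11 kept glucocorticoid-responsive genes, 10 were lowest on that array, as were 5 of 5 kept red blood cell genes and 6 of the 19 transporters. Over all genes tested this share was 22.5%. The glucocorticoid and red blood cell lists were chosen with earlier results of these data known, so these counts are no test. The red blood cell genes were Alas2 and the globin genes Hbb-bt, Hbb-b2, Hba-a2 and Hbb-bs, which are related and not independent readings. The glucocorticoid-responsive genes summed to a normalized intensity of 1924 and 2785 in wild type against 2426 and 2746 in the knockout. The 5 red blood cell genes summed to 1215 and 3070 in wild type against 3670 and 3807 in the knockout. Slc4a1 of this marker list was not above background. The first wild-type array was thus low in both lists, and their part in the metallothionein values was not tested.

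Among the glucocorticoid-responsive genes, 9 of 11 had a log2 fold change above 0, against 8151 of 15955 genes tested. The list median was 0.135, beside 0.002 over all genes. At an unadjusted limma p under 0.05, 1 of the 11 was higher, against 3.67% of all genes tested. Ddit4, whose product restrains mTOR signalling, had log2 values of 6.85 and 7.86 in wild type against 8.26 and 8.36 in the knockout. The difference of 0.96 had a limma adjusted p of 0.727, and it was 0.45 without the first wild-type array. Sult1a1, a sulfotransferase, was at 6.59 and 6.77 in wild type against 6.82 and 7.09 in the knockout. Klf9, a transcription factor induced by glucocorticoids, had a log2 fold change of 0.08, which turned to -0.46 when the local background was subtracted. The 2 genes below 0 were Tsc22d3 (-0.01) and Lcn2 (-0.04), and Sgk1 and Pdk4 were at 0.07 and 0.15. Tsc22d3, Sgk1 and Pdk4 were highest on the second wild-type array, the other kept genes of the list on the second knockout array. These genes were added after their values were seen.

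**Figure D4:**
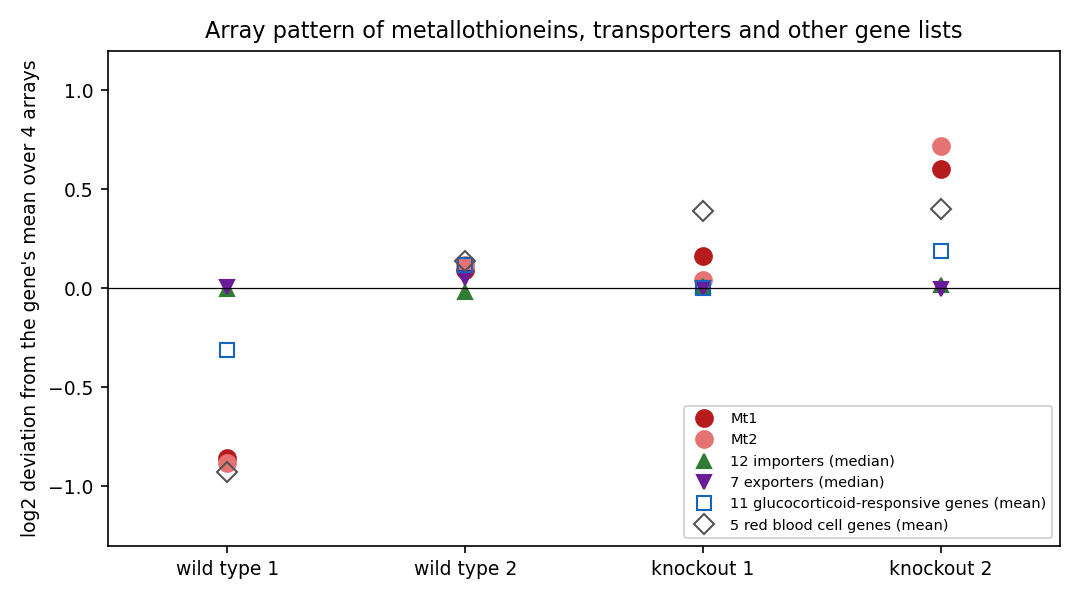
For each array, the log2 deviation from the mean over the 4 arrays: Mt1 and Mt2 singly, the median of the 12 importers and of the 7 exporters, and the mean of 11 glucocorticoid-responsive and 5 red blood cell genes. On the first wild-type array the glucocorticoid-responsive and red blood cell means are -0.31 and -0.93, while the importer and exporter medians are -0.006 and 0.008.

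Other genes of metal handling were counted in the same fit, and limma called 0 of them after adjustment. Over all genes tested, 8151 of 15955 had a log2 fold change above 0. All 7 genes listed as possible further MTF1 targets were kept, 5 above and 2 below 0. Their median log2 fold change was 0.056, with 0 at an unadjusted limma p under 0.05. Whether MTF1 acts on each of them was not tested. Gclc, of glutathione synthesis, was at 6.85 and 6.81 in wild type against 6.93 and 6.86 in the knockout. Hmox1, heme oxygenase, had a log2 fold change of -0.13, and Csrp1 one of 0.06. Of 4 kept genes among the zinc receptor and zinc-permeable channels, 2 lay above and 2 below 0. Mcoln1, a lysosomal cation channel, was at 6.74 and 6.79 in wild type against 6.89 and 6.99 in the knockout, with a limma p of 0.0236 and an adjusted p of 0.727. Its sign turned to -0.02 when the local background was subtracted. Cacna1c and Trpm7 had log2 fold changes of 0.12 and -0.17.

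Of 9 kept copper genes, 7 lay above and 2 below 0, with a median of 0.047. At an unadjusted limma p under 0.05, 2 of the 9 were higher, against 3.67% of all genes tested. Slc31a2, a copper transporter of endosomes and lysosomes, was at 7.27 and 7.45 in wild type against 7.68 and 8.04 in the knockout. The difference was 0.50 ± 0.14, with a limma p of 0.0201 and an adjusted p of 0.727. Ccs, the copper chaperone of superoxide dismutase, was at 7.21 and 7.2 in wild type against 7.50 and 7.34 in the knockout, with a p of 0.0249. Both genes lay above wild type on both knockout arrays, as did 19.4% of all genes tested. The groups did not overlap in 4 of the 9 copper genes, against 36.8% of all. Cox17, a mitochondrial copper chaperone, had a log2 fold change of -0.18.

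Of 14 kept iron genes, 6 lay above and 8 below 0, with a median of -0.006. Pcbp1, which delivers iron to ferritin, was at 9.33 and 9.38 in wild type against 9.56 and 9.63 in the knockout, with a limma p of 0.00501 and an adjusted p of 0.727. Slc11a2, a transporter of iron and other divalent metals, had a log2 fold change of 0.19, and Hfe, a regulator of iron uptake, one of -0.08. Tfrc, the transferrin receptor, was chosen after its values were seen. It was at 8.69 and 7.22 in wild type against 7.89 and 7.46 in the knockout, and its difference between the 2 wild-type arrays ranked 1 of 15955 genes. It was highest on the first wild-type array, where Mt1 and Mt2 were lowest.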

How the data were processed

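Total RNA of ventricular muscle was amplified with amino allyl labelling, coupled to Cy5 and hybridised to Toray arrays, per the labels. The deposited scanner files give spot and local background medians as linear intensity at 635 nm, per the file headers, which also list lines fitted between 3 scanner gains. The step that joined the gains is not stated. A deposited table holds the authors' processed intensity of the same arrays. Each of its columns was a straight line of the spot medians (residuals of at most 0.0523 units), with a constant of 78.4 to 87.7 units subtracted, a scale of 0.807 to 1.02, a median of 25 and 3714 to 4955 empty cells per array. The rule for empty cells is unknown.

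Spot medians were corrected by normexp (offset 50, all 27456 spots, no local background, which correlated with the spot signal at 0.931 to 0.967) in limma 3.58.1 under R 4.3.3. Gene probes were then quantile normalized on the log2 scale. Symbols came from the platform annotation: 20690 probes had 1 symbol, and 2783 with none or several were left without one. Of 19117 kept probes, 16999 had 1 symbol and stood for 15955 genes, each represented by its brightest kept probe. Of 4 genes read by 2 probes, both probes were kept in 3, and in 2 of these the signs differed.

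Groups were compared with lmFit and eBayes without covariates, two-sided, on 2 residual and 2.49 prior degrees of freedom. An exact permutation of 2 against 2 cannot give a p under 0.333, so none is printed. With 4 arrays, precision is limited. Only the limma fit was run on simulated log2 values. The background correction, filter, normalization and choice of probes were not tested in this way. All genes of the family were named, and up to 3 genes of each other list, by smallest p. Some further genes, such as Tfrc, were named after their values were seen. Members and lists were chosen with earlier results of these data known. Normalization, offset, filter, source of values, probe choice, variance model, block and single arrays were varied.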

Additional observations from a re-analysis of the deposited data

How the results depend on the processing

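With every alternative that kept all arrays, limma called 0 genes. Leaving out 1 array in turn gave 0 to 1 called genes, the 1 being Hba-a2 without the second wild-type array. Such fits have 1 array in a group, which is assumed to vary like the 2 arrays of the other group, so their p-values say nothing about stability. Genes at an unadjusted p under 0.05 numbered 1076, and 679 in the authors' table, 2344 without the first wild-type array and 444 without the second knockout array. None of the 39 genes named by family or by smallest p passed an adjusted p of 0.05 under an alternative with all arrays. Besides Mt1 and Mt2, the zinc genes at an unadjusted p under 0.05 were Slc39a1 with median scaling (0.0437), Slc39a8 with 75th percentile scaling (0.0408), the trend (0.0351) and the authors' table (0.0147), Slc39a9 after local background subtraction (0.0161) and Slc30a9 with an offset of 16 (0.0352). Mt1 was at 0.0338 with that offset. Of the 39 genes, 17 kept their direction in all alternatives, Mt1, Mt2, Slc39a1 and Slc39a8 included. The importer median of 0.021 was 0.034 with an offset of 16, 0.077 after local background subtraction, 0.013 with median scaling, 0.046 with 75th percentile scaling, 0.065 in the authors' table and 0.009 with probes averaged, and ran from 0.013 to 0.044 when single arrays were left out. The exporter median of -0.004 was -0.044 in the authors' table and ran from -0.051 to -0.001 without single arrays. It was 0.011 after local background subtraction and 0.009 with 75th percentile scaling. Over all genes tested the median was 0.039 with 75th percentile scaling, beside 0.002 in the main fit. The metallothionein median of 0.762 ran from 0.262 to 1.239 without single arrays and was 0.386 without the filter, where Mt4 is counted too.

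Directions of small differences turned as follows, as log2 fold changes, and the cause was not tested. After local background subtraction Slc39a4 was -0.055, Slc39a5 0.022, Slc39a13 -0.078, Slc30a1 0.011, Slc30a5 -0.005, Slc30a9 0.034, Mtf2 0.21, Gclc -0.02, Mcoln1 -0.017, Cacna1c -0.071 and Klf9 -0.459. With median scaling Slc39a6 was -0.013, Slc39a7 -0.023, Slc39a10 -0.014, Slc30a2 -0.01, Slc30a5 -0.025 and Mtf1 0.015. With 75th percentile scaling Slc30a1 was 0.009, Slc30a4 0.027 and Mtf1 0.049, but the median over all genes tested also rose, from 0.002 to 0.039. In the authors' table Slc39a10 was -0.005, Slc30a2 -0.007, Mt3 -0.001 and Mtf2 0.012, and with probes averaged Slc39a9 was -0.009 and Mtf2 0.005. When single arrays were left out, Slc39a4 ran from -0.016 to 0.025, Slc39a5 from -0.154 to 0.073, Slc39a6 from -0.068 to 0.082, Slc39a7 from -0.043 to 0.064, Slc39a9 from -0.045 to 0.109, Slc39a10 from -0.049 to 0.051, Slc30a1 from -0.081 to 0.048, Slc30a2 from -0.051 to 0.053, Slc30a4 from -0.036 to 0.028, Slc30a5 from -0.031 to 0.034, Slc30a6 from -0.102 to 0.009, Slc30a7 from -0.06 to 0.165, Mt3 from -0.009 to 0.029, Mtf1 from -0.011 to 0.006, Mtf2 from -0.047 to 0.034 and Hmox1 from -0.272 to 0.008.

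The arrays of the same number deviated from their group means with a correlation of 0.0967 across genes, so the numbers were not taken to pair the samples. With the replicate block 0 genes were called and 1148 had an unadjusted p under 0.05, and the family medians did not move, since each number holds 1 array per group. The unadjusted limma p fell from 0.0888 to 0.00419 for Mt1 and from 0.125 to 0.000945 for Mt2, with an adjusted p of 0.637 for both. For both genes the second array was above the first in each group, and the block removes that spread. The block also leaves fewer residual degrees of freedom. The labels do not pair the samples, so these smaller p-values are not taken as support. Within numbers, Mt1 was higher in the knockout by 1.02 and 0.50 and Mt2 by 0.93 and 0.60. Probes near background, such as Slc39a4, Slc39a8, Mt3 and Mtf1, limit what these arrays can show of those genes.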
